A study of Mus musculus with 20 samples.

Results

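The histone variant H2A.Z is put into and taken out of chromatin by a set of large, partly overlapping protein complexes, and the 32 genes described here encode their subunits together with a chaperone and a reader of the variant. They were chosen by name: every row of the count files whose gene symbol is a listed subunit of the SRCAP, p400-TIP60 or INO80 complex, the H2A.Z chaperone Anp32e or the acetyl-lysine reader Brd2. All 32 were found among 24391 genes, and all 32 had enough counts to be tested.

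SRCAP and p400 are motor proteins of the SWI2/SNF2 type that replace H2A in nucleosomes with H2A.Z, using energy from ATP. The p400-TIP60 complex also carries the acetyltransferase TIP60, which acetylates H4, H2A and H2A.Z, and the INO80 complex slides nucleosomes and has been described as taking H2A.Z out. In T cells, H2A.Z and its acetylation have been linked to genes controlled by Notch, whose intracellular domain (NICD) enters the nucleus and acts through the DNA-binding factor RBPJ.

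RNA was sequenced from 20 samples of E2-10HA, a mouse T cell hybridoma (the fusion product of a T cell and a tumour cell). Of 12 CRISPR samples, 6 carried empty lentiCRISPRv2 and 6 carried it with guides against H2afv and H2afz, the genes that encode H2A.Z; all 12 were selected with puromycin, and all 6 guide samples carry the line number 12 and count here as 1 line. The 4 BioNICD samples all expressed the biotin ligase BirA, with a biotin-tagged NICD that was wild type (n = 2) or a form labelled DEP mutant (n = 2), under histidinol selection and sorting. In the 4 NICD-ER samples, NICD was joined to the binding domain of the estrogen receptor, and the cells received ethanol (n = 2) or 4-hydroxytamoxifen (4-OHT, n = 2) for 24 hours. Separate cultures are not named for the replicates, so the spread among these samples may be technical variation. Every p-value below sets a difference against that spread only. Plasmid, selection and line go together with the groups and cannot be told apart from them.

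The samples held 10704131 to 48238324 counts, and the members 95 to 21536 counts in a sample. CRISPR replicates 1 and 2 of each group (set 1) have a treatment field in their labels that replicates 3 to 6 (set 2) lack; each set holds both groups. Samples were more alike in clusters than their sets alone would group them: the squared difference of counts over sampling noise, averaged over genes, was 2.99 to 4.43 among control replicates 3 to 5 and 5.59 between replicates 1 and 2, and 2.75 and 3.23 for guide replicates 3 with 4 and 5 with 6. It was 21.9 or more between any other 2 samples of a group in the CRISPR cells. In the other cells it was 2.66 and 3.20 within the BioNICD groups, 4.26 in 4-OHT and 19.9 in ethanol. Guide samples had less H2afz (28.2 ± 2.50 against 5.19 ± 0.440 CPM, SD, n = 6 each) and less H2afv (127 ± 11.8 against 36.0 ± 12.0 CPM), with no overlap between the groups. T cell markers summed to 1221 to 2266 CPM in all samples, with Cd3 chains present and Cd5 near 0. Fibroblast markers (Col1a1, Col1a2, Col3a1, Dcn, Pdgfra) summed to 34.9 and 42.3 CPM in replicate 1 of the control and of the guides, and to 0.284 CPM at most in the other 18 samples. Among B cell markers, Cd22 reached 1372 and 1421 CPM in BioNICD wild type while the others together stayed at 0.482 CPM or less in every sample, and of the myeloid markers Itgam stood at 61.4 and 63.0 CPM there with Csf1r at 0.167 CPM or less. Cd22 was also at 163 and 161 CPM in NICD-ER with 4-OHT, and at 11.2 and 8.16 CPM in ethanol. The share of the ribosomal RNA precursor Rn45s was highest in control replicate 6 (6.73%) and guide replicates 5 and 6 (7.67% and 6.93%).

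**Figure D1:**
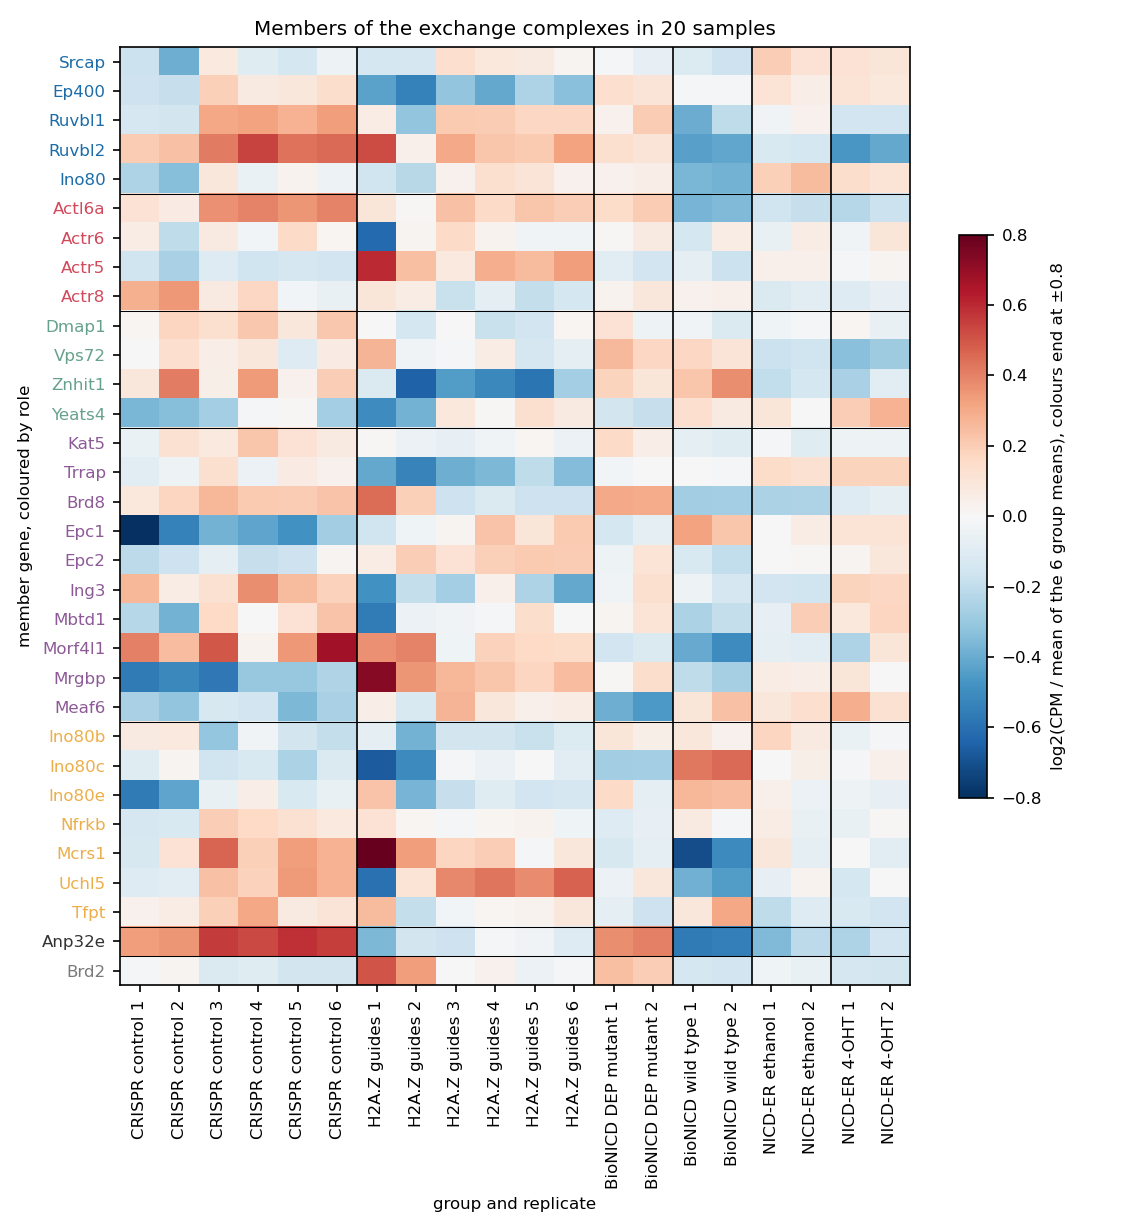
Level of each member (rows, grouped by role) in each of the 20 samples (columns), as log2 of CPM over the mean of the 6 group means. Anp32e is highest in the CRISPR control and the BioNICD DEP mutant and lowest in BioNICD wild type, where 13 of the 32 members have their lowest group mean.

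Levels are in CPM, the counts scaled to library size with TMM factors over all samples, and levels of different genes are set side by side only per kilobase of exon. In the CRISPR control the members spanned from 4.98 ± 0.746 CPM per kilobase for Morf4l1 (SD, n = 6), a chromodomain protein of the TIP60 complex, to 252 ± 19.2 for Anp32e. The next highest were Ruvbl2 at 182 ± 16.3, Actl6a at 99.9 ± 10.0, Brd8 at 95.7 ± 4.01 and Brd2 at 84.7 ± 4.21 CPM per kilobase. Actl6a and Brd8 did not differ beyond their spread, and in 25 of the 31 neighbouring pairs of the order mean ± SD overlapped. Of the motors, Ep400 (16.8 ± 1.81) stood above Ino80 (10.3 ± 1.15) and Srcap (7.47 ± 0.787). Ruvbl1 stood at 19.99 ± 3.06 CPM per kilobase, although its protein is known to form a joint ring with that of Ruvbl2.

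**Figure D2:**
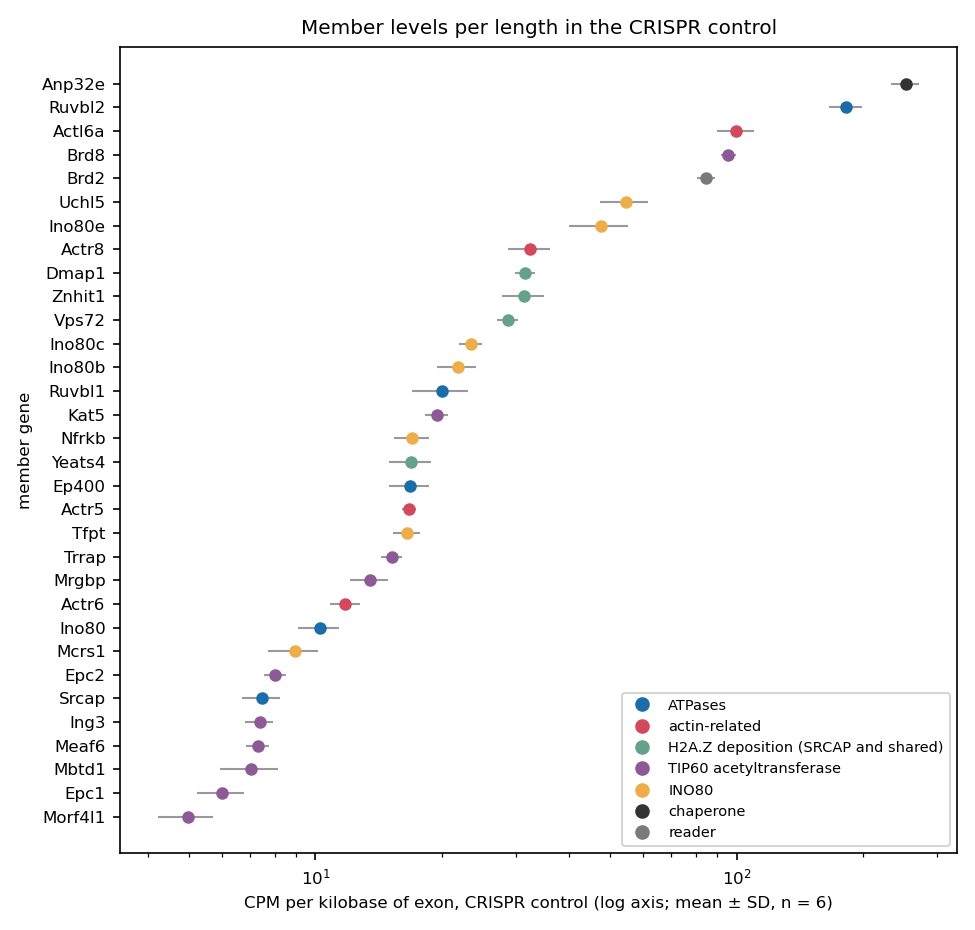
Level of each member in the CRISPR control in CPM per kilobase of exon on a log axis, as mean ± SD of 6 samples, coloured by role. The order runs from Morf4l1 at 4.98 to Anp32e at 252, with subunits of the TIP60 complex filling most of the lower end.

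Across the 6 groups, the highest group mean of a member was a median of 1.40 times its lowest. It was at least 1.5 times in 12 members, against 58.3% of 10657 genes, and at least 2 times in 1 member, Anp32e (2.07 times), against 26.1% of those genes. Without TMM factors these counts were 11 members and 0, with Anp32e at 1.95 times. These ranges describe levels of different lines and were not tested. In bulk RNA, fewer cells of a type and less RNA per cell cannot be told apart.

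With the H2A.Z guides, 7 members rose and 10 fell, or 53.1% of 32, where 64.5% of the 10662 genes tested passed (31.8% higher, 32.7% lower). The members' median log2 fold change was -0.08, beside -0.01 for all genes. CPM of the groups did not overlap for 10 members, and for 33.7% of all genes. The members that moved most were Anp32e, Znhit1, Ing3 and Ep400, which fell, and Mrgbp, Epc1 and Actr5, which rose. Calls are from the quasi-likelihood test of edgeR at an adjusted p under 0.05 with the set as a covariate, and standard errors (SE) are the fold change over the square root of its F statistic. Counting near-alike samples once leaves 3 control and 4 guide samples. Then 12 members passed (6 higher and 6 lower), and Srcap (adjusted p = 0.084), Kat5 (0.245), Actl6a (0.141), Actr8 (0.0521) and Brd8 (0.339) did not. The share of all genes in that fit is not given, so this loss of calls cannot be set against that of other genes. All 6 guide samples share a line number, so an effect of the guides and a property of that line cannot be told apart.

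Anp32e encodes the chaperone that binds H2A.Z and takes it out of nucleosomes. Its level ran from 736 to 877 CPM with a median of 851 in the control, and from 456 to 581 with a median of 536 in the guide samples. Every guide sample lay below every control sample. The log2 fold change was -0.63 (SE 0.04, edgeR adjusted p = 2.855e-09), and over all alternatives it stayed between -0.66 and -0.60. The RefSeq promoter of Anp32e is shown because this gene had the widest range of all members over the 6 groups. The 250 bases before its start, at chr3:95929007-95929256 of GRCm38.p6 (plus strand, 5′ to 3′), hold 4 CCAAT boxes, in capitals.
Anp32e: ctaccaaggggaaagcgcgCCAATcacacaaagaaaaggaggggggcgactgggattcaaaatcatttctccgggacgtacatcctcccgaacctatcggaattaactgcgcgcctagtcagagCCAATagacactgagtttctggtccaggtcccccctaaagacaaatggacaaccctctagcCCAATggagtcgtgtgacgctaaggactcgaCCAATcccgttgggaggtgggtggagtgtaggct

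Among the ATPases, 1 of 5 rose and 1 fell. Ep400, the p400 motor, ran from 156 to 202 CPM (median 187) in the control and from 122 to 149 (median 137) with the guides, without overlap (log2 fold change -0.41, SE 0.04, edgeR adjusted p = 5.777e-07). Srcap ran from 67.5 to 93.3 CPM (median 81.5) in the control and from 80.4 to 97.2 (median 91.3) with the guides, overlapping over most of the range (0.12, SE 0.05, adjusted p = 0.0329); the call was lost without guide replicate 3 or without control replicate 2, 4 or 5 (log2 fold changes over all alternatives 0.10 to 0.16). Exons of Srcap share 356 bases with 1700008J07Rik on the other strand, and reads were counted without strand. Ino80 ran from 54.1 to 73.0 CPM (median 66.3) and from 58.8 to 74.9 (median 70.2), with a log2 fold change of 0.07 (adjusted p = 0.151). Ruvbl1, one of the ring-forming helicase-like ATPases shared by all these complexes, ran from 26.4 to 36.9 CPM (median 35.9) and from 23.5 to 33.8 (median 32.9). Its partner Ruvbl2 ran from 269 to 339 CPM (median 314) in the control and from 240 to 335 (median 280) with the guides. Neither ring gene passed the test (Ruvbl1 -0.09, adjusted p = 0.223; Ruvbl2 -0.11, adjusted p = 0.179). Without replicate 1 of both groups, which held fibroblast markers, both passed, at -0.13 (adjusted p = 0.0158) and -0.20 (adjusted p = 1.513e-04).

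Of the 4 actin-related proteins, Actr5 rose and Actl6a and Actr8 fell. Actr5, a nucleosome-contacting subunit of INO80, ran from 37.0 to 41.3 CPM (median 39.8) in the control and from 46.8 to 67.0 (median 53.6) with the guides. Its groups did not overlap, and guide replicate 1 was highest (0.46, SE 0.07, edgeR adjusted p = 3.021e-05). Actl6a, which is shared by TIP60, INO80 and the SWI/SNF remodellers, ran from 168 to 212 CPM (median 207) and from 162 to 190 (median 182). Its groups overlapped, at -0.14 (SE 0.04, adjusted p = 0.00523; 0.102 without the set as a covariate). Actr8, also of INO80, went from 68.5 ± 7.88 to 59.5 ± 5.21 CPM (SD, n = 6 each), at -0.21 (adjusted p = 0.00116). Actr6, the SRCAP actin-related protein, did not pass (-0.08, adjusted p = 0.471).

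Of 4 other subunits of H2A.Z deposition, Znhit1 and Dmap1 fell. Znhit1, a zinc finger subunit of SRCAP, ran from 28.9 to 37.5 CPM (median 31.2) in the control and from 18.1 to 26.1 (median 20.2) with the guides. The groups did not overlap, and the highest guide sample was replicate 1 (-0.62, SE 0.09, edgeR adjusted p = 2.735e-05). Exons of Znhit1 share 315 bases with Plod3 on the other strand. Dmap1, a scaffold subunit of SRCAP and TIP60, went from 47.6 ± 2.53 to 41.0 ± 2.60 CPM (-0.22, adjusted p = 0.00248). Vps72, whose protein YL1 binds H2A.Z directly, stood at 41.1 ± 2.31 and 40.4 ± 4.16 CPM (-0.03, adjusted p = 0.652), and Yeats4, a reader of acetylated lysine, at 23.8 ± 2.76 and 25.9 ± 4.51 CPM (0.11, adjusted p = 0.189).

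The TIP60 group of 10 genes moved in both directions, with 4 rising and 4 falling. Mrgbp, which joins MRG-domain proteins to the complex, ran from 14.4 to 17.98 CPM (median 16.1) in the control and from 24.0 to 35.2 (median 25.4) with the guides. It had the largest positive change of the members (0.73, SE 0.10, edgeR adjusted p = 5.505e-06), without overlap. Epc1, an enhancer of polycomb protein that holds the catalytic module together, ran from 21.8 to 32.1 CPM (median 28.4) and from 34.8 to 45.6 (median 40.6), also without overlap (0.54, SE 0.06, adjusted p = 1.369e-06). Its paralog Epc2 ran from 33.1 to 38.8 CPM (median 34.1) and from 39.8 to 44.3 (median 43.7), at 0.29 (adjusted p = 1.384e-04). Meaf6, a small subunit of several acetyltransferase complexes, ran from 9.29 to 10.9 CPM (median 9.97) and from 11.0 to 14.4 (median 12.4), at 0.31 (adjusted p = 0.00227). Both rises were without overlap.

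Those that fell were Ing3, Trrap, Brd8 and Kat5. Ing3, which reads methylated H3, ran from 24.9 to 30.9 CPM (median 27.8) in the control and from 17.1 to 24.6 (median 19.9) with the guides, without overlap (-0.47, SE 0.08, edgeR adjusted p = 9.685e-05). Trrap, the giant scaffold shared with SAGA, went from 189 ± 10.7 to 145 ± 10.8 CPM without overlap (-0.39, SE 0.05, adjusted p = 1.286e-06). Kat5, the acetyltransferase itself, ran from 44.4 to 53.8 CPM (median 49.2) and from 44.0 to 46.5 (median 44.8), overlapping, with the lowest control value in replicate 1 (-0.13, SE 0.05, adjusted p = 0.0304). Its call was lost in 14 of the alternatives, 7 of which left out 1 library (guide replicate 3, 4, 5 or 6, or control replicate 2, 4 or 6), with log2 fold changes between -0.16 and -0.06. Brd8, a bromodomain subunit, is taken up with the sets below. Mbtd1 (28.3 to 43.3 CPM with a median of 38.4 in the control, 25.1 to 40.6 with a median of 36.4 with the guides; -0.07, adjusted p = 0.458) and Morf4l1 (-0.18, adjusted p = 0.152) did not pass.

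The promoter of Mrgbp is shown because this member rose most with the guides. The 250 bases before its RefSeq start, at chr2:180580972-180581221 of GRCm38.p6 (plus strand, 5′ to 3′), hold in capitals, in order, a reverse GC box (CCGCCC), a reverse CCAAT box (ATTGG) and a pair of RBPJ matches (GTGGGAA).
Mrgbp: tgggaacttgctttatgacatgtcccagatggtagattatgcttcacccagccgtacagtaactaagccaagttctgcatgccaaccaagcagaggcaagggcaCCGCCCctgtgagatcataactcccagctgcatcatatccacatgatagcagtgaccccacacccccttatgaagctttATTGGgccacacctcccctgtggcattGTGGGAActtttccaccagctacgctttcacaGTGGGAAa

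None of the 7 remaining INO80 subunits passed at an adjusted p under 0.05 over all 12 samples with edgeR (log2 fold changes -0.11 to 0.08), and none had an unadjusted p under 0.05. None passed by DESeq2 either (smallest adjusted p = 0.341, Tfpt). Of all genes, 64.5% passed with edgeR. The pooled values of Ino80c, Mcrs1, Ino80e and Nfrkb average changes of opposite direction in the sets, given below. The log2 ratio of means was -0.55 in set 1 and 0.13 in set 2 for Ino80c, and 0.70 and -0.21 for Mcrs1. A pooled value near 0 thus does not show that these genes were unchanged in each set. They are Ino80b, Ino80c, Ino80e, Nfrkb, Mcrs1, Uchl5 and Tfpt, of which Uchl5 is a deubiquitinase that also works at the proteasome. Uchl5 ran from 84.5 to 115 CPM (median 105) in the control and from 60.1 to 126 (median 118) with the guides, where replicate 1 was lowest. Brd2, a bromodomain protein found at acetylated H2A.Z, ran from 407 to 456 CPM (median 418) in the control and from 436 to 638 (median 456) with the guides. It rose by 0.21 (SE 0.05, adjusted p = 0.0018), with overlapping groups and both set 1 guide samples (638 and 567.5 CPM) above all others.

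Some chromosomes of the guide samples were shifted as a whole. On chromosome 5, the median over 682 tested genes was -0.33 on the log2 scale, and 26.1% of them lay above 0. Ep400, Trrap and Znhit1, all of which fell, are the 3 members on chromosome 5, and they lay 0.08, 0.06 and 0.29 below that median. DNA copy number was not analysed here, so a change of these genes and a change of their chromosome cannot be told apart. Anp32e lay 0.55 below the median of chromosome 3, and Mrgbp, Epc1 and Actr5 lay 0.69, 0.58 and 0.41 above those of theirs. Chromosome 8, with a median of 0.51 over 572 genes, holds no member. On chromosome 17 the median was 0.11 over 573 genes, and Brd2, which rose by 0.21, lay 0.11 above it.

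**Figure D3:**
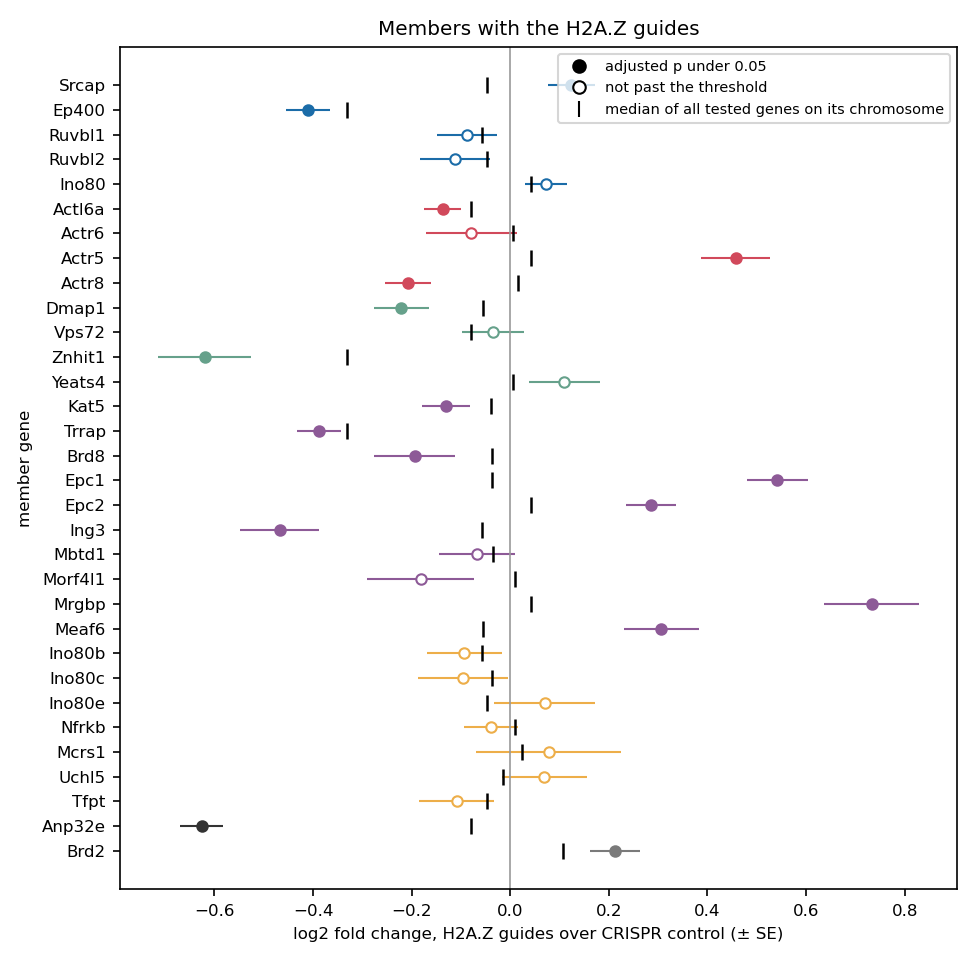
Log2 fold change of each member (H2A.Z guides over CRISPR control, n = 6 each) with its SE; filled points passed the test, and ticks mark the median of all tested genes on the same chromosome. Ep400 and Trrap sit near the tick of chromosome 5 at -0.33, whereas Anp32e at -0.63 and Mrgbp at 0.73 sit far from theirs.

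The guide effect passed a test of its difference between the sets for 7 members (21.9% of 32, against 15.7% of all genes). With near-alike samples counted once, none passed with edgeR (6 had an unadjusted p under 0.05), and 56 of all genes did. The 7 differences kept their direction there, and their adjusted p ran from 0.103 for Ino80c to 0.397 for Ino80e. Ino80c was more positive in set 2, as were 8.19% of all genes, and 6 members were more negative, as were 7.49%. Brd8 stood at 419 and 445 CPM in the set 1 controls and at 540 and 451 in the set 1 guide samples. In set 2 it ran from 455 to 475 CPM in the controls and from 352 to 364 in the guide samples. The groups overlapped over both sets and lay apart within set 2. The value of 540 CPM is that of guide replicate 1, which held fibroblast markers. Control replicate 1, which held them too, stood at 419 CPM. Replicate 2 stood at 445 CPM in the control and 451 with the guides. Brd8 was 0.19 higher on the log2 scale in set 1 alone (adjusted p = 0.285) and 0.38 lower in set 2 alone (adjusted p = 2.813e-10), and the difference was -0.58 (SE 0.09, edgeR adjusted p = 6.185e-04). Over all 12 samples it was called lower (-0.19, adjusted p = 0.0478), a call that was lost by DESeq2 (adjusted p = 0.0532) and without any 1 of 9 libraries (guide replicates 2 to 6 and control replicates 3 to 6). Exons of Brd8 share 229 bases with Kif20a on the other strand.

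Ino80c, which pairs with Actr5 in INO80, ran the other way. It stood at 56.1 and 60.8 CPM in the set 1 controls against 37.9 and 42.1 in the set 1 guide samples, and from 50.4 to 55.4 CPM in the set 2 controls against 56.4 to 60.0 in the set 2 guide samples. The groups did not overlap within either set, and the direction turned between them (difference 0.67, SE 0.09, edgeR adjusted p = 3.373e-04). Mcrs1, a scaffold subunit shared with the NSL acetyltransferase complex, stood at 13.4 and 15.9 CPM against 29.3 and 18.5 in set 1, and from 16.7 to 20.3 against 14.5 to 16.8 in set 2 (difference -0.89, SE 0.22, adjusted p = 0.0124). Its exons share 100 bases with 1700120C14Rik on the other strand.

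The remaining 4 differences were -0.54 for Ino80e (adjusted p = 0.0414), -0.51 for Mrgbp (0.0436), -0.33 for Nfrkb (0.00904) and -0.29 for Brd2 (0.0138). Ino80e stood at 39.8 and 44.0 CPM in the set 1 controls against 69.1 and 45.6 in the guide samples, and from 54.3 to 61.2 against 51.9 to 55.1 CPM in set 2. Exons of Ino80e (1091 bases) share 273 bases with Doc2a on the other strand. Nfrkb, a subunit that regulates the deubiquitinase Uchl5, stood at 76.8 and 77.7 CPM against 91.5 and 85.2 in set 1, and from 88.9 to 96.8 against 82.3 to 85.8 in set 2. Mrgbp was higher with the guides in each set alone, at 1.08 in set 1 and 0.58 in set 2.

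Set 1 holds 2 libraries a group, including the pair with fibroblast markers. Without that pair, 6 members differed between sets; Mrgbp (-0.30, adjusted p = 0.223), Ino80e (-0.16, adjusted p = 0.342) and Mcrs1 (-0.43, adjusted p = 0.0864) no longer passed, and Brd8 and Ino80c still did. The number of members that differed was 3 without control replicate 1 and 14 without guide replicate 2, and 2 without the 3 libraries highest in Rn45s. The guide comparison itself called 7 members in set 1 alone, 25 in set 2 alone and 22 without the fibroblast-marker pair. Shares of all genes are not set beside these counts, so they do not set the members apart from other genes. The part of fibroblast RNA, RNA quality and set in these values was not tested further.

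**Figure D4:**
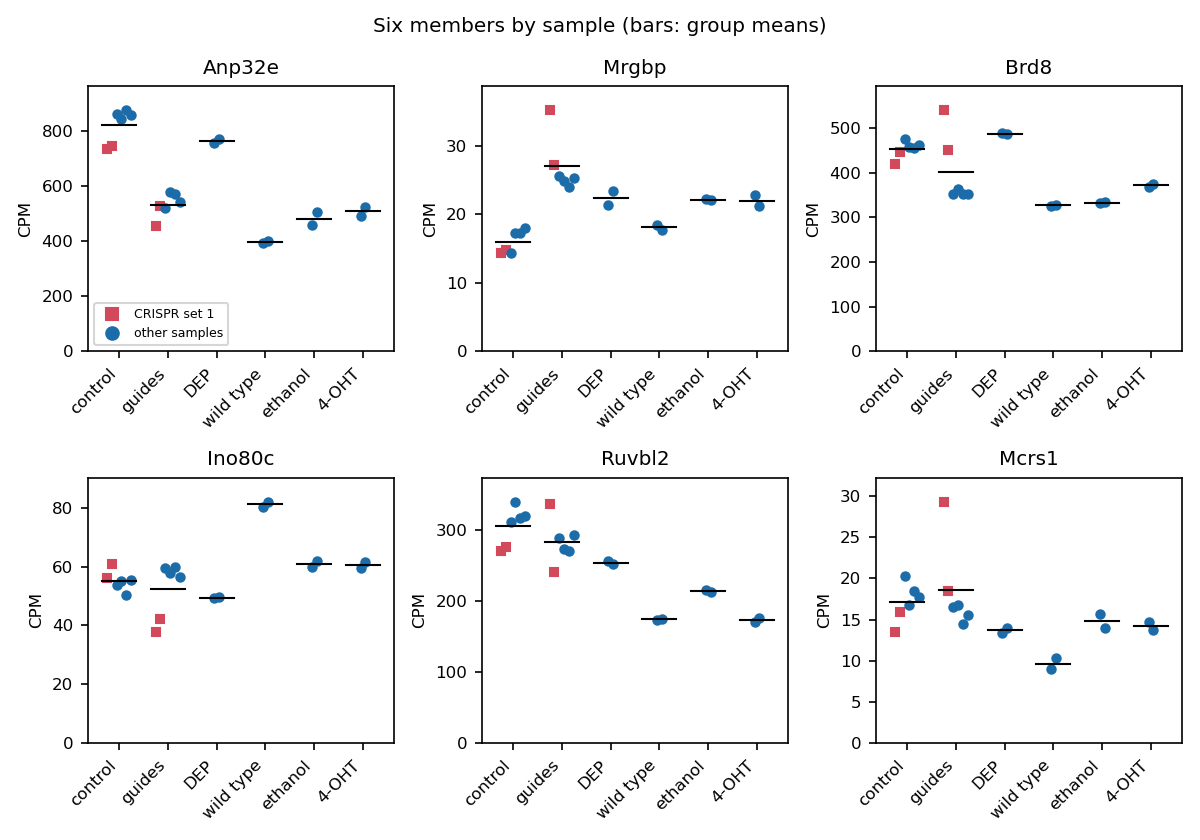
CPM of 6 members by sample, with group means as bars and the CRISPR samples of set 1 as red squares. Anp32e separates control from guide samples in both sets, and the Ino80c groups lie apart in opposite directions in set 1 and set 2. Brd8 is lower with the guides in set 2, and its set 1 difference did not pass the test.

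In the BioNICD cells, 6 members were higher with wild type NICD than with the DEP mutant and 16 were lower, or 68.8% of 32, where 65.6% of the 12499 genes tested passed (32% higher, 33.6% lower). The median of the members was -0.13, beside -0.02 for all genes. All 5 ATPases were lower with wild type NICD. Each group has 2 near-alike samples, and the spread was estimated over the 8 NICD samples (edgeR). CPM of the groups did not overlap for 25 members, and the share of all genes was not counted. With 2 samples a group, values can easily lie apart by chance. Cd22 and Itgam, markers of other cell types, were high in the wild type samples, while the defining markers of those cell types were at or near 0. High Cd22 was not particular to these samples, as it stood at 163 and 161 CPM in NICD-ER with 4-OHT. Counts of Notch1, a Notch receptor gene, stood at 282 ± 11.3 CPM with wild type NICD and at 643 ± 20.9 with the DEP mutant (SD, n = 2 each). In the CRISPR control Notch1 stood at 2.00 ± 0.697 CPM (SD, n = 6). Whether these counts come from the construct, and their part in the changes of the members, was not tested.

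Anp32e moved most, from 757 and 773 CPM with the DEP mutant to 395 and 400 with wild type NICD (-0.96, SE 0.04, edgeR adjusted p = 5.107e-15). Among the ATPases, Ruvbl2 went from 256 and 251 CPM to 173 and 175 (-0.56, SE 0.04, adjusted p = 1.25e-12). Ruvbl1 went from 30.0 and 33.7 CPM to 22.2 and 25.5 (-0.46, adjusted p = 1.45e-05). The levels of all 3 were lower in both wild type samples than in either mutant sample.

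The motors were lower too. Ino80 went from 70.3 and 71.2 CPM to 53.2 and 52.7 (-0.44, SE 0.05, edgeR adjusted p = 3.602e-08), and Ep400 from 194 and 190 CPM to 176 and 176 (-0.15, adjusted p = 0.00113; 0.0712 in a model over all 20 samples). Srcap went from 87.6 and 84.4 CPM to 82.2 and 78.9 (-0.11, adjusted p = 0.0416), a call that was lost by DESeq2 (adjusted p = 0.220) and without any 1 of 5 libraries (adjusted p 0.0502 to 0.213). None of these 3 overlapped between the groups. Of the actin-related proteins, Actl6a went from 179 and 185 CPM to 125 and 126 (-0.56, SE 0.04, adjusted p = 5.91e-12), and Actr5, Actr6 and Actr8 did not pass (-0.02, -0.11 and -0.04). Actr5 stood at 41.7 and 39.9 CPM with the mutant and at 42.0 and 39.3 with wild type.

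In the TIP60 group 2 genes rose and 6 fell. Brd8 went from 488 and 486 CPM with the mutant to 326 and 327 with wild type NICD (-0.60, SE 0.04, edgeR adjusted p = 4.25e-13). Mrgbp went from 21.4 and 23.4 CPM to 18.5 and 17.7 (-0.32, adjusted p = 8.963e-04), and Mbtd1, which binds methylated H4, from 37.5 and 39.7 to 31.0 and 32.2 (-0.31, adjusted p = 8.952e-04). Kat5 went from 51.2 and 47.7 CPM to 43.6 and 43.1 (-0.21, adjusted p = 0.00295; 0.0566 without DEP mutant replicate 1). Each of these 4 genes was lower in both wild type samples.

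Epc2 went from 37.2 and 41.3 CPM to 35.1 and 33.3 (-0.21, edgeR adjusted p = 0.00458; 0.145 without DEP mutant replicate 2), whereas its paralog Epc1 rose from 35.3 and 36.9 CPM to 48.8 and 45.4 (0.37, SE 0.06, adjusted p = 1.006e-05). Meaf6 rose from 9.08 and 8.69 CPM to 12.7 and 14.1 (0.56, SE 0.11, adjusted p = 7.185e-05). Morf4l1, the lowest member per length, fell by 0.33 on the log2 scale (adjusted p = 0.0395), and that call was lost without any 1 of the 4 BioNICD libraries (adjusted p 0.0735 to 0.143). Trrap (-0.02) and Ing3 (23.4 and 26.1 CPM with the mutant, 23.2 and 21.8 with wild type, adjusted p = 0.0708) did not pass. The paralogs Epc1 and Epc2 moved in opposite directions here and both rose with the guides.

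INO80 subunits moved in both directions with BioNICD, 3 up and 2 down. Ino80c rose from 49.4 and 49.6 CPM to 80.4 and 82.2 (0.69, SE 0.05, edgeR adjusted p = 1.333e-11), the largest rise of a member. Mcrs1 fell from 13.4 and 13.9 CPM to 8.96 and 10.3 (-0.55, SE 0.10, adjusted p = 7.313e-05), and Uchl5 from 87.8 and 96.9 CPM to 69.6 and 66.8 (-0.46, SE 0.05, adjusted p = 1.179e-07). In each of these 3 genes the 2 groups lay apart.

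Ino80e stood at 65.4 and 55.9 CPM with the mutant and at 71.0 and 70.0 with wild type (0.20, edgeR adjusted p = 0.0039), and lost its call without DEP mutant replicate 2 (adjusted p = 0.269). Tfpt rose by 0.29 (adjusted p = 0.00707), and did not pass without DEP mutant replicate 2 (0.0898) or wild type replicate 2 (0.0726). Nfrkb stood at 78.4 and 80.6 CPM and at 88.6 and 83.3 (0.10, adjusted p = 0.0876), and Ino80b did not pass (-0.02). Of the deposition subunits Yeats4 rose by 0.26 (adjusted p = 0.00241), and Dmap1, Vps72 and Znhit1 did not pass (Znhit1 31.9 and 30.2 CPM with the mutant, 32.9 and 36.6 with wild type). Brd2 fell from 531 and 516 CPM to 408 and 405 (-0.38, SE 0.04, adjusted p = 2.938e-09).

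With NICD-ER, after 24 hours of 4-OHT 3 members rose and 1 fell, or 12.5% of 32, where 36.2% of the same 12499 genes passed (19% higher, 17.2% lower). Their median was 0.00, as for all genes. Ing3 rose from 21.5 and 21.3 CPM in ethanol to 27.1 and 26.8 in 4-OHT (0.33, SE 0.07, edgeR adjusted p = 3.897e-04). Brd8 rose from 333 and 334 CPM to 369 and 375 (0.16, SE 0.03, adjusted p = 6.376e-04), a call that did not hold in every alternative. Yeats4 rose from 29.3 and 27.4 CPM to 31.3 and 33.2 (0.19, SE 0.06, adjusted p = 0.0167), but not by DESeq2 (adjusted p = 0.104) or without replicate 2 of 4-OHT (0.185) or of ethanol (0.147). Ruvbl2 fell from 214 and 212 CPM to 170 and 176 (-0.30, SE 0.03, adjusted p = 1.841e-07).

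The other members did not pass with 4-OHT. Anp32e stood at 458 and 507 CPM in ethanol and at 493.1 and 526.5 in 4-OHT (0.08, SE 0.04, edgeR adjusted p = 0.152). Of the other ATPases, Ruvbl1 went from 28.7 and 29.9 CPM to 26.4 and 26.3 (-0.15, adjusted p = 0.0946), Ino80 from 78.1 and 81.7 to 75.6 and 74.0 (-0.09, adjusted p = 0.101), Ep400 from 191 and 184 to 191 and 187, and Srcap from 101 and 95.9 to 95.9 and 94.7. Kat5 stood at 45.6 and 43.0 CPM in ethanol and at 44.8 and 44.7 in 4-OHT, and Brd2 at 440 and 432 and at 410 and 406 (-0.09, adjusted p = 0.0515). In Ruvbl1, Ino80 and Brd2 both 4-OHT samples lay below both ethanol samples. Such separation was seen for 13 of the 32 members and was not counted over all genes. With 2 samples a group it can easily arise by chance. The number of members that passed was 9 with upper quartile scaling and 2 in a model over all 20 samples.

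Members that passed in the other comparisons are given here in ethanol and 4-OHT. Mrgbp stood at 22.2 and 22.1 CPM in ethanol and at 22.8 and 21.2 in 4-OHT, and Meaf6 at 12.7 and 13.1 and at 14.6 and 13.0. Epc1 stood at 38.9 and 40.6 CPM and at 42.0 and 42.0, and Epc2 at 38.4 and 38.5 and at 38.9 and 40.7. For Epc1 and Epc2 both 4-OHT samples lay above both ethanol samples, but neither passed the test (0.08, edgeR adjusted p = 0.272, and 0.05, adjusted p = 0.514).

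Mbtd1 stood at 35.2 and 42.3 CPM in ethanol and at 39.1 and 41.5 in 4-OHT. Actr5 stood at 45.6 and 45.7 and at 44.0 and 45.03 CPM, and Znhit1 at 24.6 and 25.7 and at 23.6 and 26.5. Of the INO80 subunits, Mcrs1 stood at 15.6 and 13.9 and at 14.7 and 13.8 CPM, and Uchl5 at 86.7 and 92.8 and at 82.4 and 91.1. Ino80e stood at 60.6 and 57.2 and at 57.2 and 56.4 CPM, and Nfrkb at 87.9 and 80.9 and at 80.8 and 84.9. The treatments overlapped for all of these except Actr5, which was slightly lower in both 4-OHT samples (-0.03, edgeR adjusted p = 0.683).

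**Figure D5:**
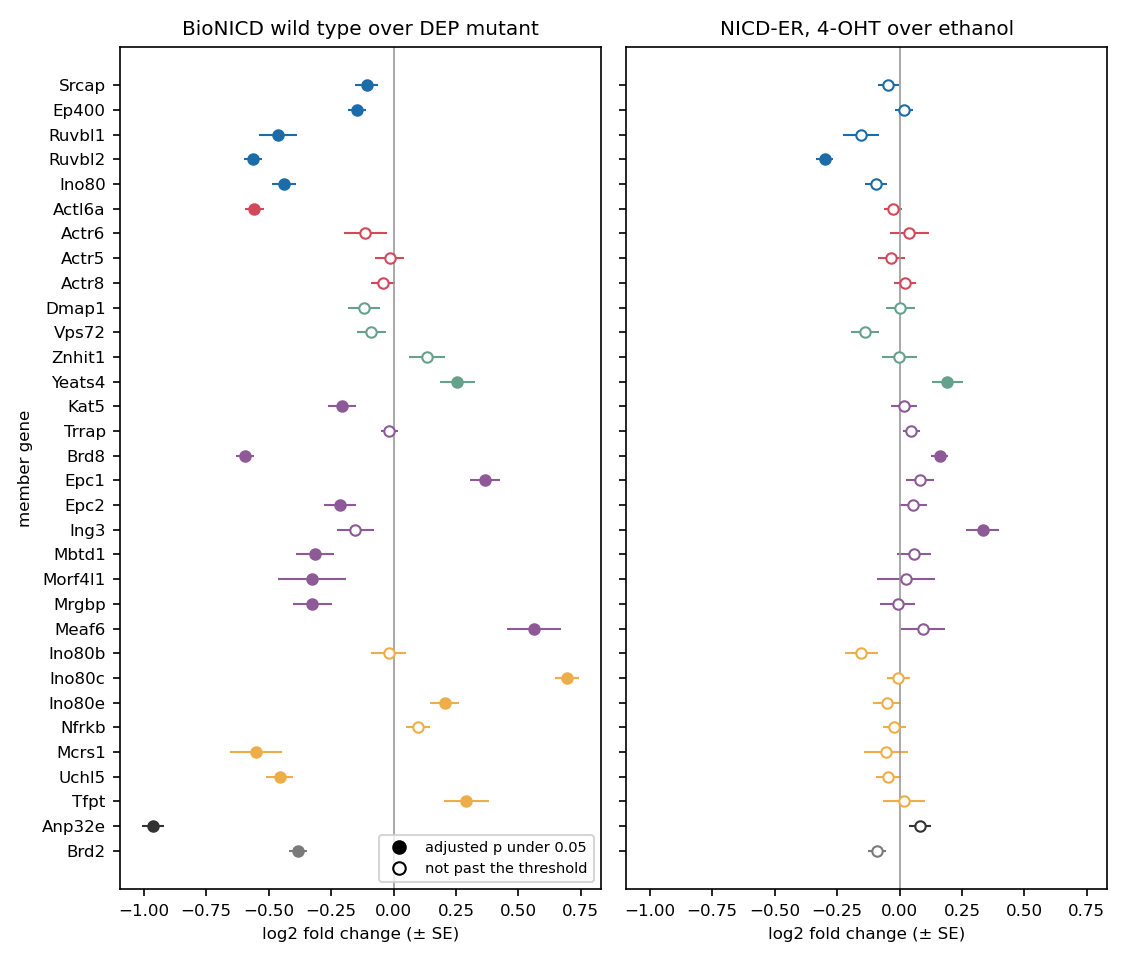
Log2 fold change of each member with its SE for BioNICD wild type over the DEP mutant (left) and for NICD-ER in 4-OHT over ethanol (right), on the same axis, with filled points past the test. Anp32e lies at -0.96 on the left and 0.08 on the right, and Ruvbl2 is left of 0 in both panels.

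The NICD effects differed between the systems for 19 members (59.4%, against 51.5% of all genes), with 15 more positive in NICD-ER (26.4% of all genes) and 4 more negative (25.1%). The largest differences were those of Anp32e (1.05, SE 0.06, edgeR adjusted p = 2.283e-12), Brd8 (0.76, SE 0.05, adjusted p = 9.343e-12), Ino80c (-0.70, SE 0.07, adjusted p = 7.232e-09) and Actl6a (0.53, SE 0.05, adjusted p = 1.172e-08). Brd8 fell with BioNICD and rose with 4-OHT, where its call did not hold in every alternative. Actl6a stood at 145 and 142 CPM in ethanol and at 137 and 143 in 4-OHT, and Ino80c at 59.9 and 62.0 CPM and at 59.6 and 61.6. The systems also differ in construct, control and duration, which cannot be told apart. In a model over all 20 samples 7 members still differed.

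Ethanol levels of some members, named here after their values were seen, lay below those of the BioNICD mutant. Anp32e was at 458 and 507 CPM in ethanol, below the 757 and 773 CPM of the DEP mutant, and Brd8 was at 333 and 334 CPM against 488 and 486. Ruvbl2 was at 214 and 212 CPM in ethanol, between the wild type and the mutant. Cd22 stood at 8.16 and 11.2 CPM in ethanol and at 0.531 and 0.705 CPM in the DEP mutant. These are levels of different lines and were not compared by a test.

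The guide and BioNICD comparisons share no samples. Of the 17 members called with the guides and the 22 called with BioNICD, 11 were called in both, which is 64.7% of the first and 50% of the second. Over all genes called, the shared calls were 70.7% and 66.4%. Of the 11, 2 rose in both (Epc1 and Meaf6), 5 fell in both (Ep400, Kat5, Actl6a, Brd8 and Anp32e) and the other 4 (Srcap, Epc2, Mrgbp and Brd2) rose with the guides and fell with BioNICD. The share with the same direction was 63.6%, against 60.1% over all genes called in both. H2afv was 68.3 ± 5.08 CPM in BioNICD wild type and 120 ± 2.80 in the DEP mutant (SD, n = 2 each), and H2afz 25.0 ± 2.76 and 25.7 ± 1.03 CPM.

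Other genes of H2A.Z chemistry were taken from a list of names (H2A.Z genes, further complex subunits, readers, chaperones and assembly factors). Of those tested, 73.7% passed with the guides, 70% with BioNICD and 30% with 4-OHT. The shares of all genes were 64.5%, 65.6% and 36.2%. The guide share of the list includes the targeted H2afz and H2afv. With the guides 8 of 19 tested rose and 6 fell, led by the targeted H2afz and H2afv, and by Zmynd8, a reader of modified histone tails (133 ± 6.37 to 190 ± 10.5 CPM, SD, n = 6; 0.51, edgeR adjusted p = 3.376e-08). With BioNICD 6 of 20 rose and 8 fell, led by Jazf1, a TIP60-associated zinc finger protein (0.89, adjusted p = 5.762e-04), H2afv (-0.84, adjusted p = 1.399e-12) and the histone chaperone Nap1l1 (-0.44, adjusted p = 8.301e-09). With 4-OHT 5 of 20 rose and 1 fell, led by H2afz (0.38, adjusted p = 0.00131), the transcription factor Yy1, which also sits in INO80 (0.16, adjusted p = 0.00902), and Actb (0.15, adjusted p = 3.641e-05).

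Remodellers outside these complexes served for comparison of counts. Among 25 SWI/SNF genes, 7 rose and 7 fell with the guides, 6 and 11 with BioNICD, and 4 and 4 with 4-OHT. Among 29 genes of the ISWI, CHD and NuRD group the numbers were 10 and 5, 12 and 14, and 10 and 3. Among 23 genes of the MOF and SAGA acetyltransferases they were 8 and 2, 2 and 11, and 4 and 3. With the guides 53.1% of the members passed, beside 56%, 51.7% and 43.5% of these lists in that order and 64.5% of all genes. With BioNICD it was 68.8%, beside 68%, 89.7% and 56.5% and 65.6% of all genes. With 4-OHT it was 12.5%, beside 32%, 44.8% and 30.4% and 36.2% of all genes. Differences between lists were not tested. The largest guide changes in these lists were those of Smarcb1 (0.69, edgeR adjusted p = 6.88e-08), Brd7 (0.68) and Bcl7b (-0.57) among SWI/SNF, Chd9 (1.496, adjusted p = 4.377e-11), Pole3 (-0.69) and Baz2b (0.64) in the ISWI, CHD and NuRD group, and Phf20 (0.75, adjusted p = 5.716e-10), Taf5l (0.52) and Tada2b (0.48) among the acetyltransferases. With BioNICD they were Ss18l1 (-0.88, adjusted p = 1.404e-10), Phf10 (-0.53) and Smarcb1 (0.42), then Mbd2 (1.37, adjusted p = 5.122e-18), Chd2 (-0.77) and Baz2b (0.66), and Kansl2 (-0.74, adjusted p = 9.564e-07), Supt20 (-0.43) and Taf5l (-0.42). With 4-OHT they were Gltscr1l (-0.34, adjusted p = 6.909e-05), Smarce1 (0.28) and Brd9 (0.25), then Mbd2 (0.67, adjusted p = 1.037e-11), Chd7 (0.33) and Chd9 (0.29), and Usp22 (-0.27, adjusted p = 3.765e-05), Tada2b (0.24) and Kat2a (-0.23).

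The promoters of 26 members (34 promoters in all, 250 bases before to 50 after each start) were found in the RefSeq table of GRCm38.p6 and searched on both strands for exact matches. CCGGAAG, an ETS motif, was in 32.4% of the member promoters, in 19.5% of 10373 promoters of tested genes and in 8.86% of all 32851. TGACGTC, a CRE motif, was in 14.7% (5 promoters of 3 genes, with overlapping promoters of Ing3 that share a match), against 5.96% and 3.21%. By gene it was in 11.5% of the 26 members and 3.6% of all genes. GGGCGG, a GC box, was in 64.7%, 63.4% and 35.7%, and CCAAT in 44.1%, 38.3% and 37.4%. GTGGGAA, an RBPJ motif, was in 8.82% (3 promoters of 2 genes), 5.87% and 6.38%, or by gene in 7.69% of the members and 7.25% of all genes; CACGTG, an E-box, in 11.8%, 10.2% and 7.15%; CATGCGC, the NRF1 core, in 8.82%, 7.54% and 3.91%; and AAGATGG, a YY1 motif, in 8.82%, 7.39% and 6.34%. Each motif was counted by its own letters, and matches of different motifs may overlap. The matches describe sequence only and were not tested against the changes.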

How the data were processed

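RNA-seq of 20 samples was used. Per the file headers, the authors deposited raw read counts per gene, made with featureCounts 1.5.0 over exons of a UCSC mm9 annotation. Strand is not set in its recorded command, although the kit named in the labels is stranded. The submitters' processing notes also name FastQC, Trimmomatic, STAR, DESeq2 and mm9; the sources used here give no other versions. Titles gave the groups and replicate numbers. For 6 of 8 set 2 CRISPR samples the description disagrees with the title, and the plasmid field matches the title. The split into sets was read from the labels' treatment field.

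The test was edgeR's quasi-likelihood test (edgeR 4.0.16, R 4.3.3), with TMM scaling and filterByExpr, and p-values were adjusted by Benjamini-Hochberg over every gene tested. The guide comparison used the 12 CRISPR samples with set as a covariate, and the NICD comparisons used 1 model of the 8 NICD samples. The biological coefficient of variation was 7.95% and 3.58%. The scripts were checked on simulated counts. Alternatives were DESeq2 1.42.0, other scalings, no filter, other models, a replicate block and leaving out samples. Leaving out the pair with fibroblast markers, and summing near-alike samples of a group (a squared difference of counts under 6 times sampling noise), were chosen after seeing the data. Values in every sample are given for the ATPases, Kat5, Anp32e and Brd2, for members past the test with an absolute log2 fold change of at least 0.4, and for those past a test of a difference between effects. From each other list, the 3 largest called changes are named. The members and lists were chosen with earlier results of these data known. Gene positions for overlaps and chromosomes are those of the file headers (mm9); promoters are from RefSeq (GRCm38.p6), with no conversion between builds. Promoters were not printed for the 6 members without an entry.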

Additional observations from a re-analysis of the deposited data

Results flagged for a closer look

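Each of the 32 members was checked in the control and in the guide group (64 checks) for a sample far from the other 5 (a gap to the nearest above 0.625 of the range), and 6 such values were found, all with the guides. For 6 like samples chance passes about 1 in 20 such checks, but each group here pools both sets. In guide replicate 1, Mcrs1 (29.3 CPM) and Mrgbp (35.2 CPM) were high, and Actr6 (12.9 CPM) and Mbtd1 (25.1 CPM) were low. In guide replicate 2, Ruvbl1 (23.5 CPM) and Ino80b (18.3 CPM) were low. Both samples belong to set 1. Guide replicate 1 held fibroblast markers, as did control replicate 1, where no value was flagged.

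The guide effect differed between set 2 and set 1, by a test of the difference that none passed with near-alike samples counted once, for Brd8 (-0.58), Mrgbp (-0.51), Brd2 (-0.29), Ino80c (0.67), Ino80e (-0.54), Nfrkb (-0.33) and Mcrs1 (-0.89), on the log2 scale.

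The NICD-ER and BioNICD effects differed, by the same kind of test, for 19 members. The difference (NICD-ER minus BioNICD, log2) was positive for Anp32e (1.05), Brd8 (0.76), Actl6a (0.53), Mcrs1 (0.50), Ing3 (0.49), Uchl5 (0.41), Mbtd1 (0.37), Ino80 (0.34), Mrgbp (0.32), Ruvbl1 (0.31), Brd2 (0.29), Epc2 (0.27), Ruvbl2 (0.26), Kat5 (0.22) and Ep400 (0.16). It was negative for Ino80c (-0.70), Meaf6 (-0.47), Epc1 (-0.29) and Ino80e (-0.25).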

How the results depend on the processing

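Of 2816 values of single members under the alternatives, 2609 kept their direction and side of the threshold, 149 lost the call, 55 gained it and 3 turned direction: Brd8 with the guides in set 1 alone (0.19), and Ino80c (0.13) and Mcrs1 (-0.20) in set 2 alone. With the guides, 6 of 17 calls held in every alternative and 13 in those on all samples or all but 1 (not Srcap, Kat5, Brd8 and Actl6a), with 4-OHT 2 of 4 (Ruvbl2 and Ing3) and with BioNICD 15 of 22 (not Srcap, Ep400, Kat5, Epc2, Morf4l1, Ino80e and Tfpt). Single sets, several samples left out together and near-alike samples summed were run for the CRISPR samples only. These numbers therefore do not rank the comparisons. Summing would have left 1 sample in each BioNICD group and in 4-OHT. Without TMM factors, 0 members had a highest group mean at least 2 times the lowest. Set 1 alone, with fewer samples, called 7 members and 2948 genes with the guides. For 4-OHT, members called were 9 with upper quartile scaling and 2 in a model over all 20 samples (2218 genes). With the replicate block 7 members were called, and the number of all genes called with it is not given. Upper quartile scaling also turned the split of all genes from 2376 higher and 2145 lower to 1970 and 2586. For the difference between NICD systems the model over all 20 samples called 7 members and 4039 genes. For the difference between sets, leaving out the 3 samples highest in Rn45s called 2 members and 447 genes, and counting near-alike samples once called 0 members and 56 genes with fewer samples. The causes were not tested. Leaving out each sample in turn gave 14 to 21 members with the guides, 3 to 6 with 4-OHT, 19 to 22 with BioNICD, 15 to 20 for the difference between NICD systems and 3 to 14 for that between sets, where all genes ranged from 851 to 4062 (control replicate 1 and guide replicate 2; 1037 without control replicate 2).

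Replicate numbers were not taken to pair samples: within sets, deviations of same-numbered CRISPR samples correlated at -0.13 to 0.17, those of NICD-ER at 0.14 and those of BioNICD at -0.01. With the number as a replicate block, 15 members were called with the guides and 23 with BioNICD. The fit with the block called 5 members for the difference between sets and 20 for that between NICD systems. The numbers of all genes called are not given, so these counts do not set the members apart from other genes. The fewest counts of a member in a sample were 95, which limits the precision of the members at that level.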
